A study of Mus musculus with 6 samples.

Results

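The DNA replication machinery is described here through 48 genes, taken by symbol from the 22706 genes of the deposited table. The list was fixed by name and covers 9 roles, from the recognition of replication origins to the copying of chromatin and DNA methylation behind the fork. RNA was measured in muscle stem cells (MuSCs, also called satellite cells), the resident stem cells that rebuild skeletal muscle fibers, in 6 libraries of 3 groups with 2 libraries each. Control mice were wild type, and mdx mice lack dystrophin through a mutation of its gene and serve as a model of Duchenne muscular dystrophy. Sirt6mKO/mdx mice carry the same mdx mutation together with a deletion of Sirt6, which encodes a chromatin deacetylase of the sirtuin family. The labels give the strain C57BL/6 for all 3 groups, whereas the methods of the study name C57BL/10ScSn-Dmdmdx/J as the mdx line and the study's reporting form states that mice were kept on C57BL/6. In the study, Sirt6 was deleted by a constitutively active Cre recombinase under the Pax7 promoter. The Cre acted on loxP sites around several Sirt6 exons, and figure legends name adult male mice as the source. Cells were sorted straight from muscle by surface markers or by a Pax7-driven fluorescent reporter, and which gate served which library was not stated. The methods call the RNA-seq replicates biological. Neither they nor the labels say which animals gave which library, so p-values measure the spread between these libraries.

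Replication starts at origins that are bound by the origin recognition complex (ORC), which with CDC6 and CDT1 loads the ring of MCM subunits in the G1 phase of the cell cycle. At the start of S phase, CDC45 and the GINS complex join the MCM ring to form the active helicase, and polymerases, the sliding clamp PCNA and ligase copy the opened strands. Most adult MuSCs are quiescent and enter the cycle after injury, and many of these genes are transcribed under the control of E2F factors as cells leave quiescence. In sorted bulk cells, a larger share of cycling cells and more RNA per cell cannot be told apart.

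Libraries held between 4397632 and 9745218 approximate reads. A member held a median of 33 to 135 approximate reads per library. The median was highest in mdx at 134 and 135, where the members' level was also higher, so this is not depth alone. Control replicate 2 and mdx replicate 2 were of similar depth, at 7216692 and 7220030 approximate reads. In libraries where the members rest on fewer reads, their values carry more counting error. MuSC markers were present throughout, as the 12 listed genes, among them Pax7, Myf5 and Itga7, had a median normalized read count between 2371 and 2960 and none was at 0. Single genes of this list differed between groups. Sdc4 had 7692 and 6224 in control, 1100 and 1049 in mdx, against 2753 and 2822 in Sirt6mKO/mdx, whereas Itga7, Vcam1 and Cdh15 were highest in both mdx libraries. Summed counts of 10 leukocyte markers ranged from 101 to 204, those of 10 endothelial markers from 455 to 964 and those of 7 erythroid markers from 9 to 95. Ptprc, which defines leukocytes, ranged from 0 to 19. Sirt6 itself had normalized read counts of 41 and 32 (control), 33 and 40 (mdx), and 37 and 30 (Sirt6mKO/mdx), so a lower level was not detected in counts per gene, and for this reason the text speaks of libraries labelled Sirt6mKO/mdx. Any direction stated for them holds only if their label does. Xist reached 16772 and 12950 in control, but between 7 and 34 in the other 4, and the Y-linked Ddx3y was at 3 and 8 in control against 1024 to 1767 elsewhere, although male mice were stated. In every comparison with control, genotype and this difference in sex-linked transcripts cannot be told apart.

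All 48 genes had a mean of at least 5 over the 6 libraries and were tested, with a call requiring an adjusted p of at most 0.05 and an absolute log2 fold change of at least 1 (limma on log2(value + 1), Benjamini-Hochberg over 15915 genes). In mdx against control, 10 members rose and 0 fell, and 41 of 48 fold changes were above 0. The genes that rose were Orc3, Orc5, Orc6, Mcm2, Mcm5, Mcm6, Rfc3, Lig1, Uhrf1 and Chaf1b. This is 20.8% of the members, beside 6.89% of all genes tested that were called higher and 7.34% that were called lower. Without the adjustment, 24 members (50%) reached p under 0.05 upward and 1 (2.08%) downward, beside 15.5% and 15.4% of all genes tested. The median log2 fold change was 0.84 over the members and 0.00 over all genes tested. In 32 members both mdx libraries lay above both control libraries, beside 28.7% of all genes tested. In 1 member, Pcna, both lay below, beside 4505 of the 15915 genes tested.

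In the libraries labelled Sirt6mKO/mdx, 5 members fell relative to mdx and 0 rose, and 42 of 48 fold changes were below 0. The genes that fell were Mcm3, Mcm5, Mcm6, Rpa1 and Lig1, or 10.4% of the members, beside 2.54% of all genes tested called lower and 5.62% called higher. At an unadjusted p under 0.05 stood 17 members (35.4%) downward and 0 upward, beside 11.1% and 14.1% of all genes tested. The median log2 fold change was -0.67, beside 0.02 over all genes tested, and in 26 members both of these libraries lay below both mdx libraries, beside 27.2% of all genes tested. The same mdx libraries enter this comparison and that with control, so the opposite signs of the medians are not independent of each other. Relative to control, 2 members, Orc5 and Orc6, rose in the libraries labelled Sirt6mKO/mdx and 0 fell, beside 5.19% and 2.68% of all genes tested, and the median was 0.10. At an unadjusted p under 0.05 stood 7 members (14.6%) upward and 1 (2.08%) downward in that comparison, beside 13.1% and 11% of all genes tested. The distributions of the fold changes show the members to the right of all genes in the first comparison, to the left in the second and around 0 in the comparison with control.

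**Figure D1:**
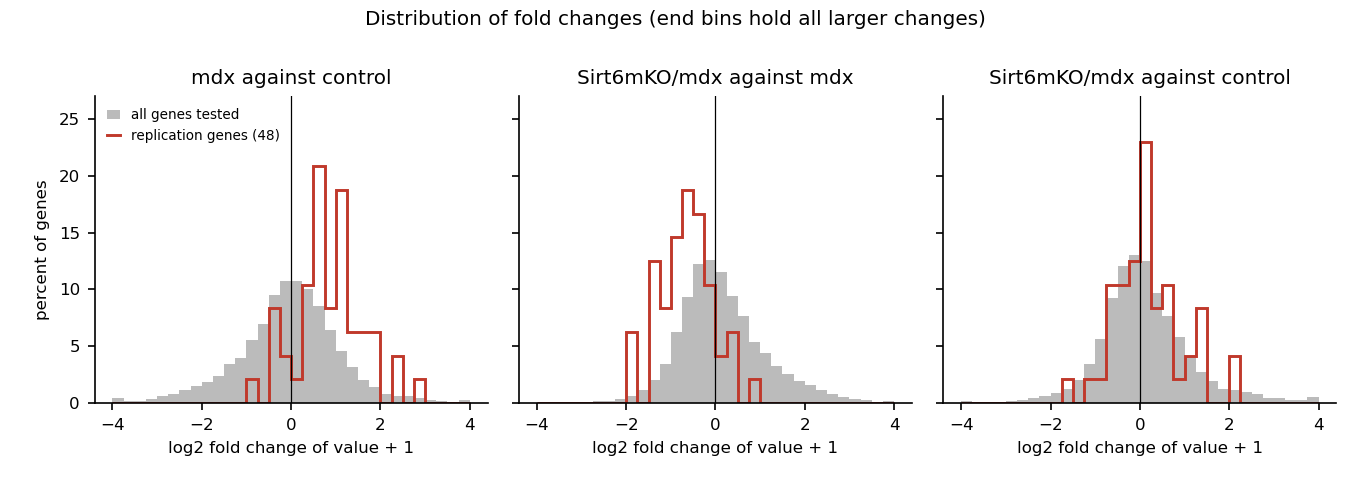
Percent of genes (vertical axis) per bin of log2 fold change on the log2(value + 1) scale (horizontal axis) for the 48 replication genes (red line) and all genes tested (grey). The medians of the replication genes were 0.84 in mdx against control, -0.67 in Sirt6mKO/mdx against mdx and 0.10 in Sirt6mKO/mdx against control.

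By library, the summed normalized read count of the 48 members was 4640 and 4952 in control, 6660 and 7773 in mdx, against 4396 and 5232 in Sirt6mKO/mdx. Both mdx libraries stood above the other 4, and mdx replicate 2 held the highest value of 31 members, against 9 for mdx replicate 1. The group mean was highest in mdx for 40 members, in control for 5 and in Sirt6mKO/mdx for 3, or 83.3%, 10.4% and 6.25%, beside 33.4%, 35.2% and 30.0% of all genes tested. In 23 members (47.9%) both mdx libraries exceeded all 4 other libraries, which held for 14.8% of all genes tested. Replicates differed too, as the median log2 ratio of replicate 2 to replicate 1 over the members was 0.17 in control, 0.41 in mdx and 0.21 in Sirt6mKO/mdx, with -0.03, -0.02 and 0.00 over all genes tested. The heat map of the members by library shows this by role.

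**Figure D2:**
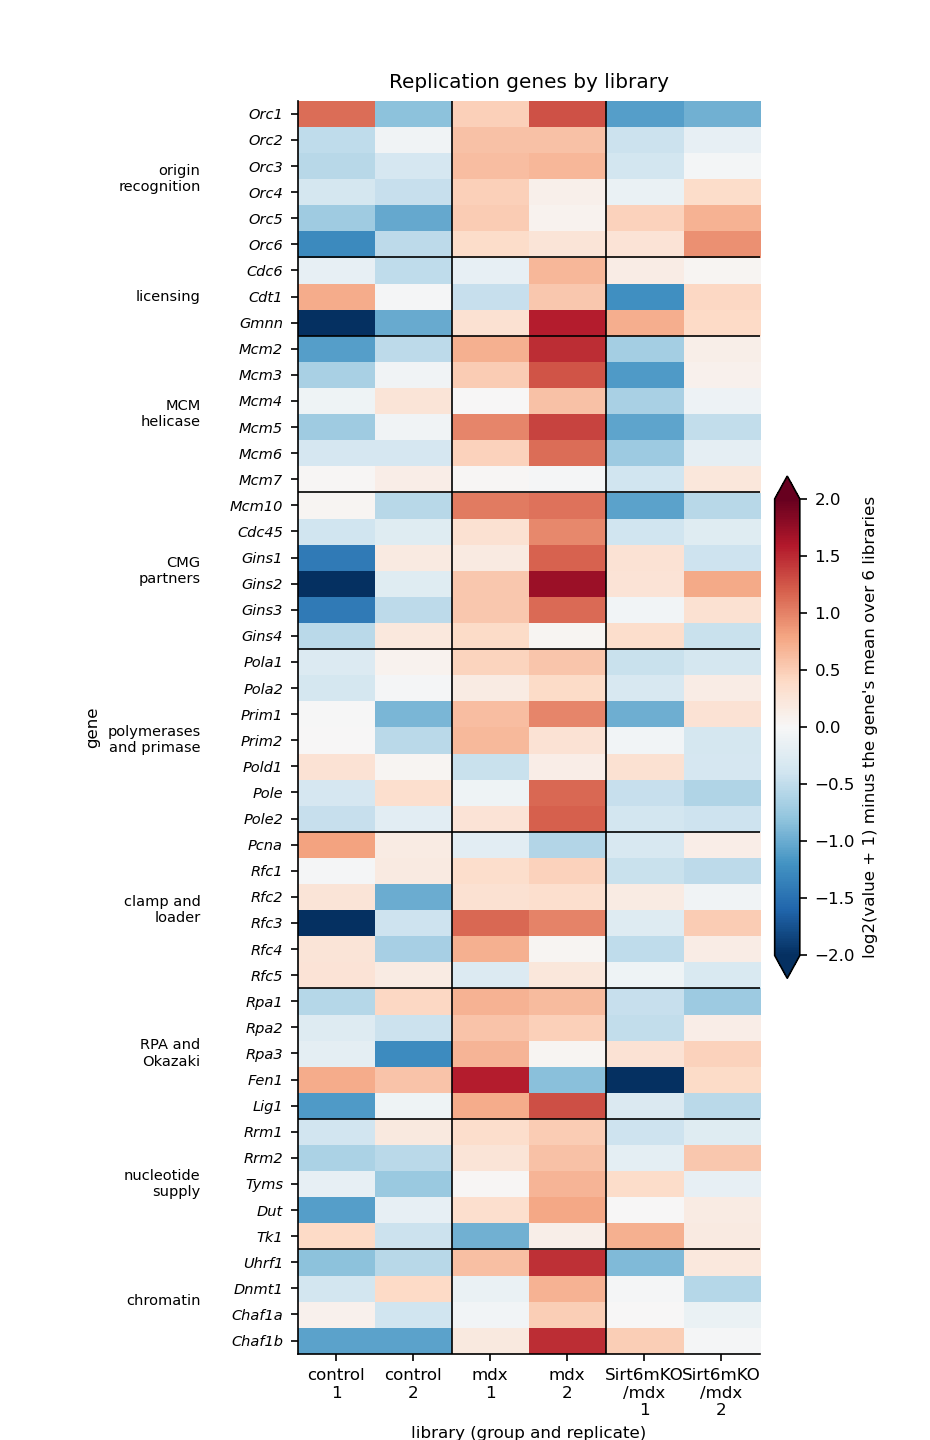
Level of each replication gene (rows, by role) in each library (columns), as log2(value + 1) minus the mean of that gene over the 6 libraries, in blue when lower and in red when higher. The red fields lie mainly in both mdx libraries, more so in mdx replicate 2, which held the highest value of 31 of the 48 genes.

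Other measures moved with these groups as well. All 24 of the 24 listed genes that respond to tissue dissociation, such as Fos, Egr1 and Hspa1a, were lower in mdx than in control and all 24 were higher again in the libraries labelled Sirt6mKO/mdx. Their summed counts were 160400 and 170738 in control, 24643 and 26842 in mdx, against 129190 and 121760 in Sirt6mKO/mdx. Summed counts of the 10 myofibre markers were 7842 and 10137, 5156 and 1861, and 10724 and 5548 in the same order, lowest in mdx replicate 2. Endothelial markers summed to 964 and 822, 455 and 476, and 672 and 692, and erythroid markers to 71 and 23, 9 and 17, and 45 and 95. In all 4 of these sums both mdx libraries lay below the other 4 libraries, the opposite order to the summed replication genes. Sums of smooth muscle and pericyte markers were 9413 and 8926, 7698 and 8997, and 4644 and 4963, and those of Schwann markers were 656 and 1073, 1267 and 971, and 553 and 617, both lowest in the Sirt6mKO/mdx libraries. Single genes made up much of some sums, as Notch3 had 7831 and 6184, 4041 and 5382, and 3049 and 2789 in the same order. Pmp22 held 524 and 838, 1047 and 768, and 418 and 493 of the Schwann sums. Tek held 669 and 631, 379 and 348, and 503 and 469 of the endothelial sums. By the median gene, the smooth muscle and pericyte list stood at 127 and 124, 93 and 84, and 184 and 115, lowest in mdx. Sums of leukocyte markers were 112 and 135, 117 and 101, and 200 and 204, highest in Sirt6mKO/mdx. Cd68 made up 86 and 88 of the sums in control, and without it the other 9 genes summed to 26 and 47, 87 and 75, and 93 and 148, lowest in control. Fibro-adipogenic markers summed to 28714 and 34971, 44192 and 33965, and 25785 and 33349, and replicate 1 of mdx and of Sirt6mKO/mdx stood apart with medians of 255 and 229, against 42.5 to 70.5 in the other libraries. The part of any of these in the results on replication genes was not tested.

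To show a regulatory sequence found in part of these genes, promoter windows of RefSeq (GRCm38.p6), from 250 bases before to 50 after the start of transcription, were searched on both strands for the E2F-type motifs TTTCCCGC, TTTGGCGC, TTTCGCGC and TTTGCCGC. Windows were matched for 40 of the 48 members. The table did not hold Gmnn, Mcm4, Gins1, Gins2, Gins4, Prim2, Pole or Rfc2. An E2F-type motif was present in 16 of 40 members (40%), beside 2.61% of the 27025 genes with a window. The CCAAT box, searched as CCAAT, was in 62.5% of the members and 41.1% of the genes, and the CHR-type motifs TTTGAA and TTCGAA were in 17.5% and 21.7%. 7 of the 12 members that were called in a comparison held an E2F-type motif, and 1 window of each is shown because these genes carry the comparisons that follow. Each is read in the direction of transcription, with 1 motif in capitals and positions counted from 0 at the start of transcription.
Orc3: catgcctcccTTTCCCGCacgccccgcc
Mcm3: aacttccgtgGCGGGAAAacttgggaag
Mcm5: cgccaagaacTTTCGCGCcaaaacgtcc
Mcm6: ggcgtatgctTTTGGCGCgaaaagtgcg
Rfc3: cgtcgcacgcTTTCGCGCtcgcgggaaa
Lig1: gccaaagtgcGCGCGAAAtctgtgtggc
Uhrf1: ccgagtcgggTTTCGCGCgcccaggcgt

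The windows of Mcm3 and Lig1 carry the motif on the opposite strand. The motif started 153 bases before the start of transcription in Mcm5 (chr8:75109346-75109373), 110 bases before it in Mcm6 (chr1:128359798-128359825, minus strand) and 41 bases before it in Orc3 (chr4:34614966-34614993, minus strand). It started 185 bases before the start in Uhrf1 (chr17:56304118-56304145) and 10 bases before it in Rfc3 (chr5:151651201-151651228, minus strand). In Mcm3 (chr1:20820276-20820303, minus strand) and Lig1 (chr7:13278842-13278869) it lay 19 and 26 bases after the start. In Mcm5 and in Mcm6 the printed motif overlapped a further E2F-type motif on the other strand by 4 bases, and the Rfc3 window holds a further one on that strand, GCGGGAAA, at positions 0 to 7, left in lower case. In mdx against control the median log2 fold change was 1.08 over the 16 members with an E2F-type motif, 6 of which rose, and 0.84 over the 24 members without one, 4 of which rose. In Sirt6mKO/mdx against mdx the medians were -0.92 and -0.51, and 4 and 1 of these members fell. In Sirt6mKO/mdx against control the medians were -0.14 and 0.11, and 0 and 2 rose. The 8 members without a window had medians of 0.71, -0.64 and 0.26 in these comparisons, in this order, and none was called. A motif is a match of letters and not a bound site, and its absence concerns only this window.

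Among the 6 ORC genes, which encode the complex that marks origins, 3 rose in mdx and 0 fell in Sirt6mKO/mdx relative to mdx. Orc3 (ENSMUSG00000040044, GRCm38 chromosome 4, 34570796 to 34614944) had normalized read counts of 214 and 248 in control, 484 and 500 in mdx, against 243 and 307 in Sirt6mKO/mdx. The mdx libraries lay well above the other 4, at a log2 difference from control of 1.09 (SE 0.25, adjusted p = 0.0091), and the change from mdx to Sirt6mKO/mdx was -0.85 (adjusted p = 0.0503). Orc5 (ENSMUSG00000029012, chromosome 5, 22486485 to 22550429) took another course, with 77 and 62 in control, 181 and 134 in mdx, against 175 and 207 in Sirt6mKO/mdx. Its log2 fold change against control was 1.16 in mdx (SE 0.32, adjusted p = 0.0222) and 1.45 in Sirt6mKO/mdx (SE 0.32, adjusted p = 0.0116), and the libraries of these groups overlapped. Orc6 (ENSMUSG00000031697, chromosome 8, 85299632 to 85308278), the smallest ORC subunit, followed Orc5 with 44 and 74, 138 and 128, and 130 and 203 in the same order. Relative to control it rose by 1.20 (SE 0.37) with an adjusted p of 0.0351 in mdx, and by 1.49 (SE 0.37) with an adjusted p of 0.02 in Sirt6mKO/mdx.

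Orc4 had the highest mean of the role with 302 and 279 in control, 539 and 415 in mdx, against 353 and 497 in Sirt6mKO/mdx. The log2 fold change of 0.70 in mdx had an adjusted p of 0.0828. Orc2 stood at 122 and 166, 263 and 264, and 130 and 156. Its log2 fold change in mdx of 0.88 had an adjusted p of 0.0492 but missed the minimum fold change, and 29.8% of its exonic bases overlap Nif3l1 on the opposite strand. Orc1, the subunit whose level is tied most closely to the cell cycle, was low and variable at 41 and 10, 26 and 46, and 8 and 9. Per exonic length, Orc1 was the lowest ORC gene in all 6 libraries.

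Of the licensing factors none was called. Cdc6, an ATPase that helps ORC to load the helicase, stood at 32 and 25 in control, 32 and 58 in mdx, against 40 and 37 in Sirt6mKO/mdx. Cdt1, the other loading factor, ranged from 9 to 38 with overlap between all groups. Gmnn, whose product geminin blocks CDT1 after origins have fired, had 2 and 5 in control, 14 and 35 in mdx, against 19 and 15 in Sirt6mKO/mdx. Its log2 fold change of 2.45 in mdx (SE 0.82) rests on few reads and had an adjusted p of 0.052.

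The MCM genes encode the 6 different subunits of the helicase ring, and not all of them were called. Fold changes were above 0 for 5 of them in mdx and below 0 for all 6 in Sirt6mKO/mdx relative to mdx. Whether the subunits differ from each other was not tested. Mcm2, Mcm5 and Mcm6 rose in mdx, and Mcm3, Mcm5 and Mcm6 fell in Sirt6mKO/mdx relative to mdx. The median log2 fold changes over the 6 genes were 1.19 and -1.31, and -0.17 in Sirt6mKO/mdx against control. Mcm5 (ENSMUSG00000005410, chromosome 8, 75109528 to 75128439) had 54 and 84 normalized read counts in control, 176 and 227 in mdx, against 42 and 63 in Sirt6mKO/mdx. Both mdx libraries were above the other 4, with log2 fold changes of 1.55 against control (SE 0.38, adjusted p = 0.0121) and -1.94 between Sirt6mKO/mdx and mdx (SE 0.38, adjusted p = 0.00596). Mcm6 (ENSMUSG00000026355, chromosome 1, 128331591 to 128359656) had 199 and 199, 347 and 549, and 152 and 222. In these comparisons it rose by 1.13 (SE 0.30), with an adjusted p of 0.0178, and fell by 1.24 (SE 0.30), with an adjusted p of 0.0181, again with no overlap of the mdx libraries with the others.

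Mcm2 (ENSMUSG00000002870, chromosome 6, 88883475 to 88898780) had 38 and 57 in control, 136 and 230 in mdx, against 51 and 89 in Sirt6mKO/mdx. In mdx it rose by 1.90 on the log2 scale (SE 0.42, adjusted p = 0.00623), and the difference of -1.38 between Sirt6mKO/mdx and mdx had an adjusted p of 0.0514. Mcm3 (ENSMUSG00000041859, chromosome 1, 20802974 to 20820278) had 76 and 115, 172 and 288, and 54 and 128, and was called for the fall of -1.41 relative to mdx (SE 0.42, adjusted p = 0.0475), which was -0.79 without Sirt6mKO/mdx replicate 1 and -2.02 without Sirt6mKO/mdx replicate 2, while its log2 fold change of 1.24 in mdx had an adjusted p of 0.0543. Except for the rise of Mcm2, these adjusted p values lie close to the threshold on either side of it.

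Mcm4 and Mcm7 had smaller differences. Mcm4 stood at 192 and 244 in control, 206 and 306 in mdx, against 130 and 190 in Sirt6mKO/mdx, with a log2 fold change in mdx of 0.21 (95% interval -0.44 to 0.87). In Sirt6mKO/mdx relative to mdx its log2 fold change was -0.67 (95% interval -1.33 to -0.018, adjusted p = 0.187). Mcm7, the MCM gene with the highest mean, stood at 287 and 309, 287 and 277, and 212 and 330, so that all groups overlapped. Its log2 fold change in mdx was -0.08 (95% interval -0.66 to 0.51), and 12.6% of its exonic bases overlap other genes. On the scale of values per 1000 exonic bases, the highest MCM gene exceeded the lowest, Mcm2, by 11.9 and 8.52 times in control, 3.80 and 3.56 times in mdx, and 6.53 and 5.83 times in Sirt6mKO/mdx. The levels of the subunits were therefore closest to each other in both mdx libraries. In control and Sirt6mKO/mdx Mcm7 was the highest of the 6 and in mdx Mcm6.

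**Figure D3:**
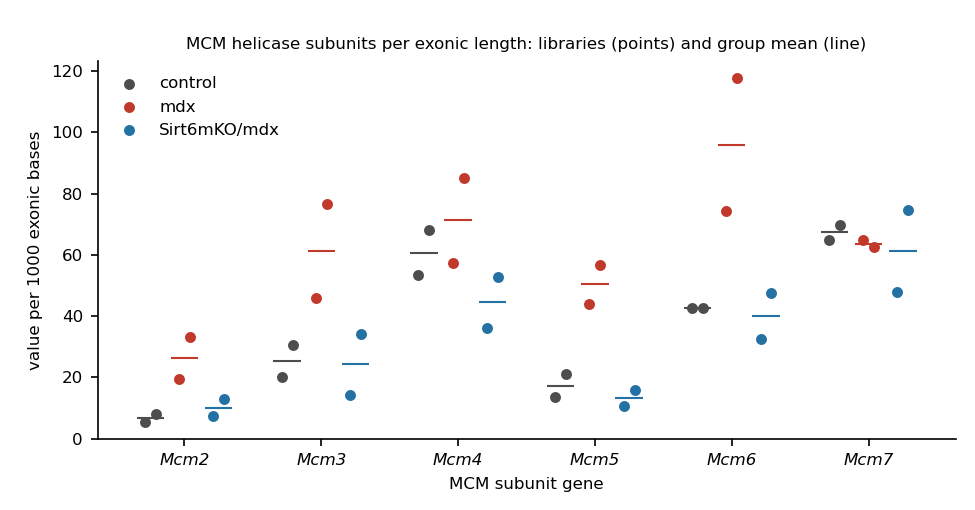
Normalized read count per 1000 exonic bases (vertical axis) of the 6 MCM genes (horizontal axis) in control (dark grey), mdx (red) and Sirt6mKO/mdx (blue), with a point per library and a line at the group mean of 2 libraries. Mcm2, Mcm3, Mcm5 and Mcm6 are highest in both mdx libraries, whereas the groups overlap for Mcm7.

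The partners that turn the MCM ring into the active helicase were not called, and all but Gins4 had group means of at most 36.5 normalized read counts. All 6 had a log2 fold change above 0 in mdx, with a median of 1.30, and all 6 below 0 in Sirt6mKO/mdx relative to mdx, with a median of -0.72. Mcm10, which helps to activate the helicase, had 14 and 9 in control, 29 and 30 in mdx, against 6 and 9 in Sirt6mKO/mdx. Cdc45 had 17 and 19, 28 and 45, and 17 and 19, and Gins3 had 6 and 12, 26 and 40, and 17 and 22. In these 3 genes both mdx libraries were above the other 4, yet the smallest adjusted p of the role was 0.0818, for Gins2 in mdx. Gins2 was at 0 in control replicate 1, where a count of 0 allows up to 3 reads or a value of 4.53, and at 6 in control replicate 2, 11 and 26 in mdx, against 9 and 13 in Sirt6mKO/mdx, and 67.3% of its exonic bases overlap Gse1 on the opposite strand. Gins4, the most abundant of the role, ranged from 54 to 103 with overlap between all groups, and Gins1 ranged from 3 to 23.

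None of the 7 polymerase and primase genes was called, but 6 of them had both Sirt6mKO/mdx libraries below both mdx libraries, an order that 27.2% of all genes tested showed. Pola1, the catalytic subunit of the polymerase that starts each new strand, had the highest mean with 208 and 264 in control, 342 and 370 in mdx, against 184 and 197 in Sirt6mKO/mdx. The difference from mdx of -0.90 on the log2 scale had an adjusted p of 0.0449 but missed the minimum fold change, and the gene lies on chromosome X. Its partner subunit Pola2 had 47 and 59, 68 and 79, and 48 and 67. Both primase genes were highest in both mdx libraries. Prim1, which synthesizes the RNA primer, had 44 and 23, 68 and 88, and 22 and 54, and Prim2 had 53 and 36, 83 and 65, and 51 and 41. Of the leading-strand polymerase epsilon, Pole had 47 and 76, 56 and 134, and 43 and 39, and its subunit Pole2 had 29 and 35, 49 and 94, and 31 and 30. Pold1 of polymerase delta, with 124 and 104, 74 and 111, and 125 and 80, was the only gene of the role with a fold change below 0 in mdx (-0.32, adjusted p = 0.59).

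Of the clamp and its loader, 1 gene rose in mdx and none fell. Pcna (ENSMUSG00000027342, chromosome 2, 132249162 to 132253314), the ring that holds polymerases on DNA and also serves DNA repair, had 764 and 490 normalized read counts in control, 378 and 290 in mdx, against 348 and 478 in Sirt6mKO/mdx. It was the most abundant member per exonic length in all 3 groups, and both mdx libraries lay below both control libraries. Its log2 fold change of -0.88 in mdx (SE 0.28, adjusted p = 0.0448) missed the minimum fold change. It was -0.56 when control replicate 1 was left out and -1.20, then called, when control replicate 2 was. Of the 100-base sequences of Pcna 10.1% are shared with the pseudogene Pcna-ps2 and reads mapping to several places were left out, so its level is uncertain. Rfc3 (ENSMUSG00000033970, chromosome 5, 151642756 to 151651242), a subunit of the clamp loader, had 11 and 35, 105 and 94, and 39 and 67. It rose by 2.27 in mdx (SE 0.55, adjusted p = 0.0107), or by 1.48 when control replicate 1 was left out and 3.06 when control replicate 2 was, and its difference of -0.94 from mdx in Sirt6mKO/mdx had an adjusted p of 0.3.

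The other 4 loader subunits were not called. Rfc1, the large subunit, had 245 and 281 in control, 319 and 344 in mdx, against 183 and 173 in Sirt6mKO/mdx, with a log2 fold change of -0.89 relative to mdx (adjusted p = 0.0427) that missed the minimum fold change. Rfc2, Rfc4 and Rfc5 ranged from 35 to 125, and their log2 fold changes in mdx were 0.69, 0.58 and -0.24 with adjusted p of at least 0.306. In control, Rfc2 had 85 and 35 and Rfc4 had 77 and 40, so their fold changes depend on which control library is used.

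Genes for binding single strands and joining Okazaki fragments held a member called in each direction. Lig1 (ENSMUSG00000056394, chromosome 7, 13277283 to 13311433), the ligase that seals Okazaki fragments, had 33 and 69 in control, 123 and 181 in mdx, against 60 and 50 in Sirt6mKO/mdx. Both mdx libraries exceeded the other 4, and the log2 fold changes were 1.62 in mdx (SE 0.43, adjusted p = 0.0181) and -1.43 between Sirt6mKO/mdx and mdx (SE 0.43, adjusted p = 0.0496). Rpa1 (ENSMUSG00000000751, chromosome 11, 75298166 to 75348324), the large subunit of the single-strand binding protein, had 113 and 224, 272 and 260, and 122 and 101. It fell by 1.25 on the log2 scale relative to mdx (SE 0.33, adjusted p = 0.0312), and its log2 fold change of 0.74 in mdx had an adjusted p of 0.147, with control libraries that differed by more than those of mdx. Rpa2 had 59 and 52, 105 and 99, and 50 and 78, and Rpa3 had 45 and 21, 83 and 53, and 63 and 71, without a call. Fen1, the nuclease that trims flaps, ranged from 0 to 15, and 84.2% of its exonic bases overlap Tmem258 and Gm10143 on the opposite strand, so its level is uncertain, and a loss of reads there was not tested.

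The 5 genes of nucleotide supply were not called. Rrm1, the large subunit of ribonucleotide reductase, had the highest mean with 205 and 305 in control, 342 and 382 in mdx, against 200 and 225 in Sirt6mKO/mdx. Its partner Rrm2 had 73 and 78, 136 and 172, and 99 and 166, with a log2 fold change of 1.01 in mdx and an adjusted p of 0.059. Dut, which removes dUTP, had 32 and 62, 88 and 120, and 70 and 78, and Tyms, which makes dTMP, ranged from 27 to 74. Tk1, the thymidine salvage kinase, had 91 and 51, 35 and 75, and 113 and 78. It was the 1 member in which both Sirt6mKO/mdx libraries lay above both mdx libraries (log2 fold change 0.86, adjusted p = 0.261). That order held for 4580 of the 15915 genes tested.

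Among the genes that copy chromatin and methylation, 2 of 4 rose in mdx. Uhrf1 (ENSMUSG00000001228, chromosome 17, 56303321 to 56323486), which brings the methyltransferase to newly copied DNA, had 24 and 29 in control, 66 and 121 in mdx, against 23 and 50 in Sirt6mKO/mdx. The mdx libraries were above the other 4, at a log2 difference from control of 1.72 (SE 0.52, adjusted p = 0.0348), and the difference of -1.37 from mdx in Sirt6mKO/mdx had an adjusted p of 0.116. Chaf1b (ENSMUSG00000022945, chromosome 16, 93883901 to 93906115), a subunit of the histone chaperone CAF-1, had 14 and 14, 35 and 86, and 43 and 30, and rose by 1.90 in mdx (SE 0.58, adjusted p = 0.0359), with 2.54 without mdx replicate 1 and 1.26 without mdx replicate 2. Dnmt1, the methyltransferase itself, was the most abundant of the role at 211 and 357, 248 and 440, and 268 and 182, and the groups overlapped. Chaf1a ranged from 14 to 27, and 52.5% of its exonic bases overlap Ubxn6 on the opposite strand.

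**Figure D4:**
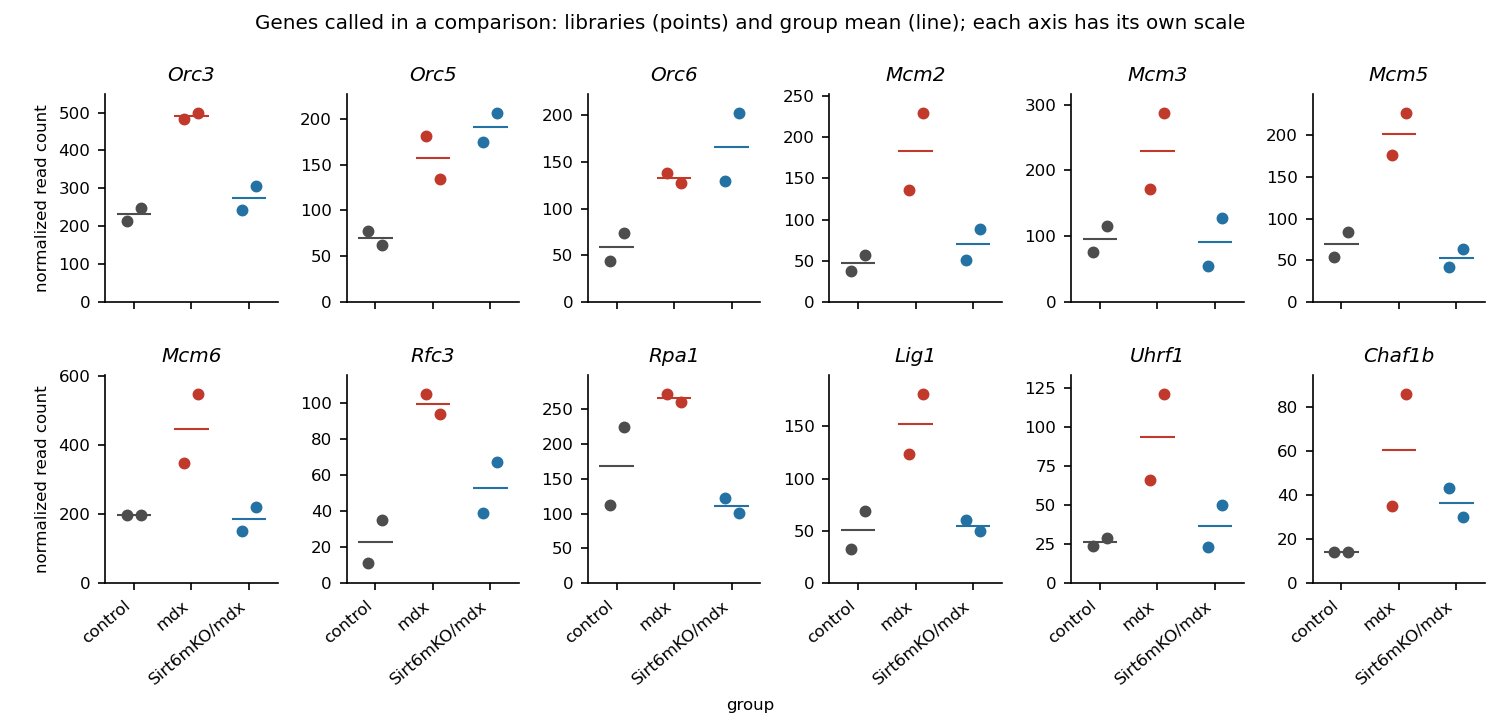
Normalized read count (vertical axis, each panel on its own scale from 0) of the 12 members called in at least 1 comparison, with a point per library and a line at the mean of the 2 libraries of control (dark grey), mdx (red) and Sirt6mKO/mdx (blue). In Orc3, Mcm2, Mcm3, Mcm5, Mcm6, Rfc3, Rpa1, Lig1 and Uhrf1 both mdx points lie above the other 4, whereas the Sirt6mKO/mdx points of Orc5 and Orc6 overlap those of mdx and lie above control.

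Mcm5, Mcm6 and Lig1 were called both for the rise in mdx and for the fall relative to mdx in Sirt6mKO/mdx. The 3 members with the lowest means, Fen1, Gins2 and Gins1, had the widest intervals. In mdx against control the 95% interval of the log2 fold change ran from -2.89 to 2.31 for Fen1, from 0.56 to 4.98 for Gins2 and from -0.57 to 3.16 for Gins1.

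**Figure D5:**
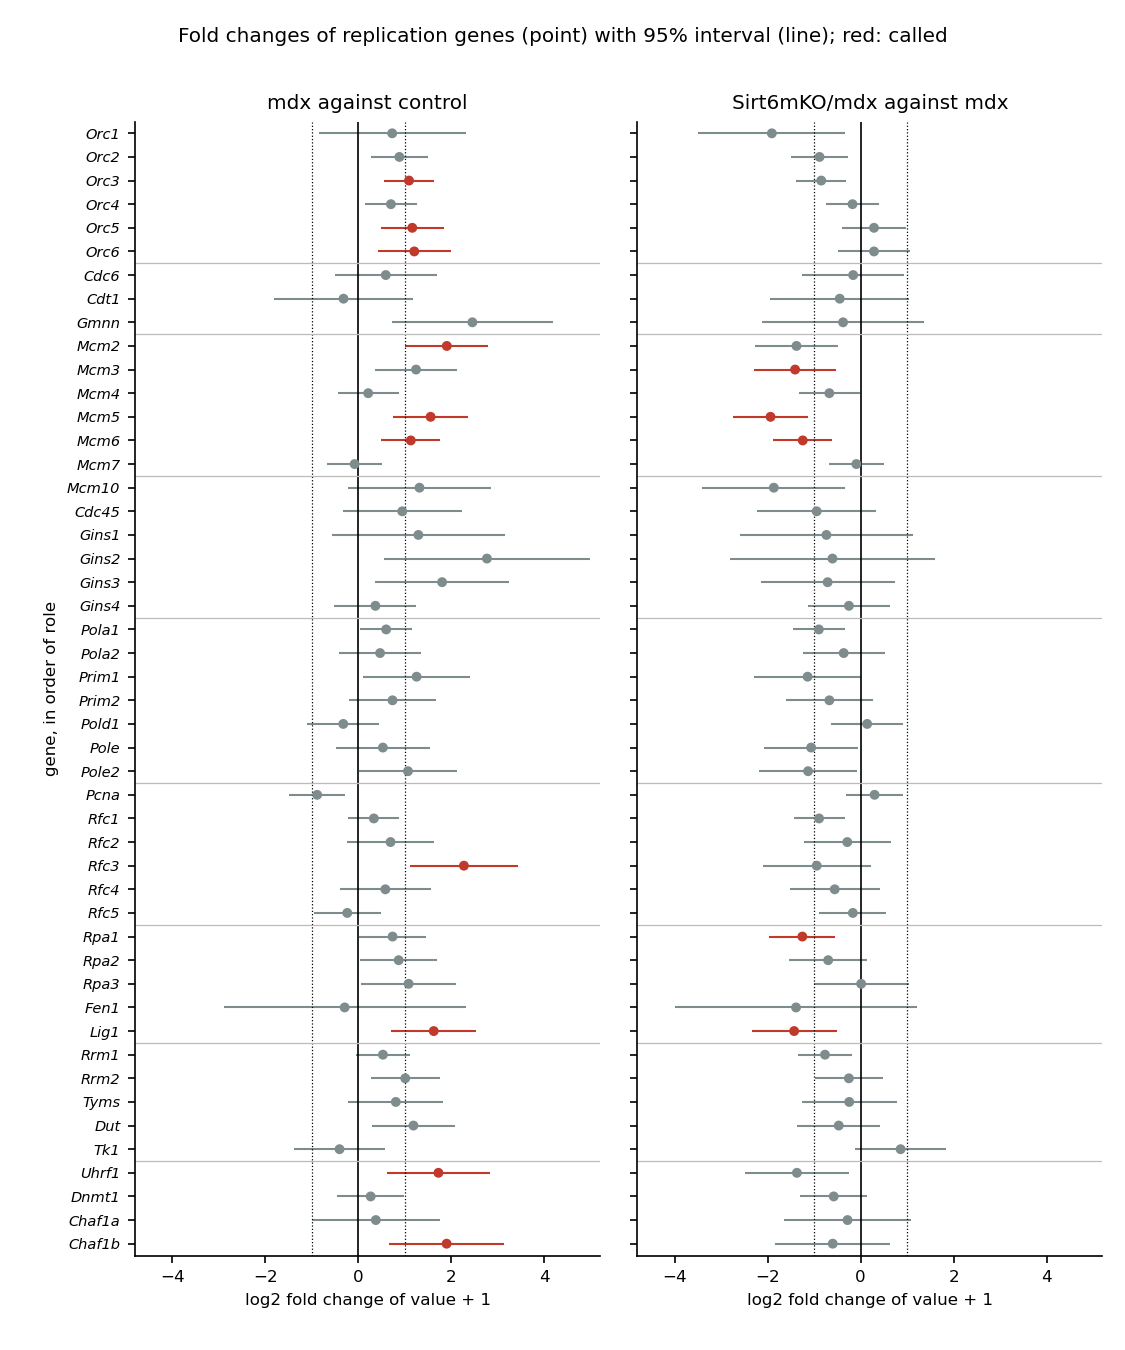
Log2 fold change on the log2(value + 1) scale (horizontal axis, point) with its 95% interval from limma (line) for the 48 replication genes in order of role (vertical axis), with called genes in red and dotted lines at a log2 fold change of -1 and 1. In mdx against control 41 points lie to the right of 0 and in Sirt6mKO/mdx against mdx 42 lie to the left.

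Replication genes outside the 48, listed in 8 further groups, gave 17 genes that rose and 2 that fell in mdx, of 84 tested, with a median log2 fold change of 0.46. These are 20.2% and 2.38% of the list, beside 6.89% and 7.34% of all genes tested. In Sirt6mKO/mdx relative to mdx 10 fell (11.9%) and 1 rose (1.19%), with a median of -0.37, beside 2.54% and 5.62% of all genes tested. Relative to control 2 rose (2.38%) and 3 fell (3.57%), beside 5.19% and 2.68%, so that the falls were near the background. Top2a, the topoisomerase of dividing cells, had 30 and 61 in control, 229 and 369 in mdx, against 71 and 128 in Sirt6mKO/mdx, with log2 fold changes of 2.73 (adjusted p = 0.00045) and -1.60 (adjusted p = 0.0281) in these comparisons. Its paralog Top2b, which is not tied to division, had 622 and 928, 1882 and 1669, and 851 and 687, with 1.22 and -1.21, and Rnaseh2b rose by 1.42. In the E2F group of 20 genes, 4 rose and 1 fell in mdx. Rbl1, a pocket protein that binds E2F factors and is itself a known E2F target, had 17 and 22, 88 and 171, and 29 and 30, with 2.60 and -2.02 (adjusted p = 0.0025 and 0.021). E2f8, a repressor of E2F targets, had 0 and 1, 9 and 22, and 9 and 19, and Ccna2, the cyclin of S phase, had 14 and 14, 60 and 89, and 17 and 65, and both rose in mdx.

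In the fork protection group of 13 genes, 3 rose in mdx, among them Etaa1, an activator of the ATR kinase, with 11 and 9, 88 and 103, and 23 and 61. Timeless and Tipin encode partners that travel with the fork, and their values ran apart. Timeless had 44 and 55 in control, 75 and 68 in mdx, against 197 and 205 in Sirt6mKO/mdx, and rose by 1.48 relative to mdx (adjusted p = 0.0165), whereas Tipin had 50 and 77, 229 and 260, and 167 and 210, and rose by 1.96 in mdx relative to control (adjusted p = 0.00076). Of the nucleotide genes outside the 48, Dctpp1 rose by 1.45 and Shmt1 fell by 1.61 in mdx, and Dctd fell by 1.53 relative to mdx in Sirt6mKO/mdx. Of the chromatin genes 3 rose in mdx, among them Mms22l and Hells, and Dnajc9, a histone chaperone, fell by 1.72 relative to mdx. Pole3, a histone-fold subunit of polymerase epsilon, had 85 and 92, 212 and 206, and 56 and 93, with 1.23 in mdx and -1.52 relative to mdx, and the clamp unloader Atad5 had 29 and 31, 92 and 109, and 31 and 34, with 1.71 and -1.60. Of the 12 further licensing and firing genes none was called in mdx, where 9 had a fold change above 0, and Topbp1, which helps to fire origins, fell by 1.27 relative to mdx. Chtf8 fell by 1.07 in Sirt6mKO/mdx relative to control.

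Landmarks of the cell cycle are given beside these genes. Mki67, a marker of cycling cells, had 39 and 80 in control, 252 and 548 in mdx, against 99 and 162 in Sirt6mKO/mdx, with both mdx libraries highest and mdx replicate 2 the higher of them. Cdk1 had 24 and 30, 71 and 116, and 43 and 119. Ccnb1, the cyclin of mitosis, had 6 and 14, 22 and 26, and 34 and 35, with both Sirt6mKO/mdx libraries above both mdx libraries, and was not called in any comparison. Ccnd1, the cyclin of G1, had 352 and 851, 930 and 1217, and 207 and 251, and fell by 2.22 relative to mdx (adjusted p = 0.00094). The inhibitor gene Cdkn1a had 952 and 531, 206 and 178, and 449 and 413, lowest in both mdx libraries, while the inhibitor gene Cdkn1c had 57 and 180, 1218 and 1072, and 317 and 674, highest in both. Of the myogenic genes on this list, Myog had 124 and 281, 945 and 920, and 432 and 1232 in the same order. Myod1 had 400 and 310, 349 and 339, and 251 and 495.

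The counts of calls depended on single libraries and on the test. The 10 members that rose in mdx became 1 without control replicate 1, 2 without mdx replicate 1, 0 without mdx replicate 2 and 6 without Sirt6mKO/mdx replicate 2, which enters the shared estimate of spread. Of all genes tested, 4.49%, 1.77%, 3.32% and 5.1% were called higher in these fits, so the single member left without control replicate 1 and the 0 without mdx replicate 2 were below the background. Between 39 and 44 members had a fold change above 0 in each of them. The 5 that fell relative to mdx became 2 without mdx replicate 1, 0 without either mdx replicate 2 or Sirt6mKO/mdx replicate 1 and 1 without Sirt6mKO/mdx replicate 2, with 37 to 42 fold changes below 0. In each of these 4 fits between 0.132% and 0.333% of all genes tested were called lower. The 2 that rose relative to control became 1 without either control or either mdx library and 0 without either Sirt6mKO/mdx library. With 1 prior variance for all genes in place of one that follows the mean, 0 members were called in each comparison. Of all genes tested, this setting called 1.14% higher and 2.26% lower in mdx against control and 0 in Sirt6mKO/mdx against mdx, where a count of 0 members is therefore no result about them. Under the same setting 20 members stood upward in mdx and 15 downward relative to mdx at an unadjusted p under 0.05. The share of all genes tested at that p was not computed for this setting, so these counts have no background to compare with. Without mdx replicate 2 the members' median log2 fold change in mdx against control was 0.82, beside 0.00 over all genes tested. Relative to mdx it was -0.42 without mdx replicate 2 and -0.54 without Sirt6mKO/mdx replicate 1, beside 0.01 and 0.03.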

How the data were processed

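RNA-seq of sorted MuSCs was deposited as 1 table of normalized read counts for 6 libraries. In the methods of the study, ribosomal RNA was depleted, libraries were made with the Ion Total RNA-Seq Kit, reads were mapped with STAR to GRCm38 and counted per gene with featureCounts, and the authors normalized with DESeq2. The submitters' processing notes give STAR 2.4.2a, featureCounts 1.4.5-p1 and DESeq2 1.6.0, and the methods name other versions of STAR and DESeq2. Reads over several genes or places were left out, and whether counting used strand is not given in the sources used here. The values deposited by the authors are thus a score, the count divided by 1 size factor per library and rounded, and not raw counts, so no count test was used here. Size factors of 0.537 to 1.527 were recovered from the value steps, and value times factor gives the approximate reads. Such depths limit counting precision only.

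Values were tested as log2(value + 1) with limma 3.58.1 (R 4.3.3), with a prior variance that follows the mean, all 6 libraries in 1 fit, and genes with a mean of at least 5 over the libraries. A gene was called at a Benjamini-Hochberg adjusted p of at most 0.05 and an absolute log2 fold change of at least 1. Fold changes on this scale understate the change of low genes. The members and all gene lists were chosen with earlier results of these data known. Values per library are given for each called member and for the member with the highest mean in each role, with others where they complete a complex. Other replication genes were named if called, up to 3 per list by size. Positions and exonic lengths come from the mouse GENCODE release M21, which held 98.5% of the gene identifiers, and shared sequence was counted in stretches of 100 bases. For the leukocyte list, 10 of 12 symbols matched. Same-numbered libraries of different groups deviated with correlations of -0.128 (control and mdx), 0.119 (control and Sirt6mKO/mdx) and 0.009 (mdx and Sirt6mKO/mdx), and nothing in the labels ties the numbers. Alternatives were other pseudocounts, filters, scalings and prior variances, a replicate block, and leaving out each library. Python 3.11.15 with pandas 2.3.3 and matplotlib 3.10.9 made summaries and plots.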

Additional observations from a re-analysis of the deposited data

How the results depend on the processing

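The 10 members higher in mdx than in control and the 5 lower in Sirt6mKO/mdx than in mdx were 13 and 6 with a robust prior variance, and 11 and 6 with a pseudocount of 10 or a mean of at least 50, which leaves 33 members tested. Of all genes tested, 7.15% and 2.75%, 6.65% and 2.56%, and 9.67% and 4.45% were called in these settings, in this order. The members called were 1 and 0 without a filter on low values, which tests more genes, and 0 and 0 with 1 prior variance for all genes. Of all genes tested, these fits called 1.85% and 0.0623%, and 1.14% and 0%, so these small counts are no result about the members. The 5 became 3 with a pseudocount of 0.1, 3 with equal upper quartiles and 21 with equal summed values. These settings called 2.03%, 2.14% and 18.4% of all genes tested lower. As given above, summed values before scaling were highest for both Sirt6mKO/mdx libraries. The last scaling moved the median of all genes tested to -0.58 and that of the members to -1.29, so that the members lay 0.71 below it, against 0.70 in the main comparison. Relative to control, equal summed values moved the members' median in Sirt6mKO/mdx from 0.10 to -0.48, beside -0.58 over all genes tested, with 0 called higher and 4 lower, beside 2.86% and 16.9% of all genes tested. The 2 called higher there were also 0 without a filter and with 1 prior variance, beside 0.751% and 0.408% of all genes tested. Without a minimum fold change 11 members were higher and 1, Pcna, was lower in mdx than in control, beside 8.17% and 8.48% of all genes tested. In Sirt6mKO/mdx 7 members were then lower than in mdx and 0 higher, beside 3.21% and 5.94%. Equal summed values turned the log2 fold changes of Orc5 (-0.34) and Orc6 (-0.34) in Sirt6mKO/mdx against mdx, and of Lig1 (-0.40), Mcm2 (-0.070), Orc3 (-0.36) and Uhrf1 (-0.23) against control. In all of these the cause was not tested.

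Counts of calls changed strongly when 1 library was left out, as given above. The members' median in mdx against control was then 0.81 to 0.98, beside -0.04 to 0.02 over all genes tested. In Sirt6mKO/mdx against mdx it was -0.88 to -0.42 when a library of these groups was left out, beside 0.01 to 0.05. In Sirt6mKO/mdx against control it was -0.056 to 0.17, and -0.04 without Sirt6mKO/mdx replicate 2. Among members called in a comparison, single log2 fold changes of Sirt6mKO/mdx against control that turned ran from -0.33 to 0.71 for Lig1, -0.78 to 0.45 for Mcm3 (0.13 without control replicate 2), -0.39 to 0.16 for Mcm6 and -0.19 to 0.90 for Uhrf1. Against mdx, Chaf1b ran from -1.24 to 0.037 and Orc6 from -0.032 to 0.61. Members that were not called turned too, such as Dnmt1 in mdx against control, from 0.27 to -0.15 without mdx replicate 2. Where 1 library was left in a group, it was assumed to vary like the other groups. With the replicate block, 13 members were higher in mdx than in control, 6 were lower in Sirt6mKO/mdx than in mdx and 2 were higher than in control. Of all genes tested, 7.34%, 2.89% and 5.87% were called so in this fit, so the last count lay below the background. Members with few approximate reads, such as Fen1 and the GINS genes other than Gins4, are limited by depth.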
